A study of Mus musculus with 12 samples.

Results

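Supraclavicular brown fat (scBAT) was set against inguinal white fat (iWAT) in 6 RNA sequencing libraries, the 3 count columns labelled for each depot, out of 12 libraries in the series. All of them came from untreated male C57BL/6 mice, 8 weeks old and housed at ambient temperature. The remaining 6 libraries, 3 of interscapular brown fat (iBAT) and 3 of epididymal white fat (eWAT) from mice of the same description, shared the statistical fit and served as another brown and white pair. Whole fat tissue was used, so every library holds RNA of adipocytes together with that of vessels, nerves, immune cells and tissue taken along at dissection. The labels do not say whether replicates came from separate mice, so the p-values measure the spread between these samples, which may be technical.

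Brown adipocytes burn fatty acids and glucose in dense mitochondria, where uncoupling protein 1 (UCP1) lets protons flow back without making ATP, so that the energy leaves as heat. Noradrenaline from sympathetic nerves drives this through adrenergic receptors and cyclic AMP, which releases fatty acids from the lipid droplet and raises transcription of genes such as Ucp1 and Dio2. White adipocytes store triglyceride in a large droplet and release hormones such as leptin. The inguinal pad is the mouse depot best known for beige adipocytes, which make UCP1 after cold, and it holds a lymph node.

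Libraries held 17555857, 19890543 and 18073423 counts in scBAT, and 24411866, 21670017 and 25467294 counts in iWAT. Of 23420 genes in the table, 14898 had enough counts to be tested. Values are given as CPM, counts scaled by library total and TMM factor, in the order of libraries 1, 2 and 3 of a depot. The scBAT libraries lay close together, with a median distance of 0.509 (0.448 to 0.529), where distance is the root mean square difference of log2 CPM over all tested genes. The iWAT libraries were spread more widely, at a median distance of 0.983 (0.467 to 1.3), and the biological coefficient of variation was 15.8% in scBAT and 42.8% in iWAT. Between scBAT and iWAT libraries the median distance was 1.76 (1.28 to 1.96).

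The iWAT libraries differed in lymphoid RNA. B cell markers summed to 8.32, 7.06 and 6.47 CPM in scBAT, against 1930, 110 and 2650 CPM in iWAT, and T cell markers to 21.3, 19.7 and 14.4 CPM in scBAT, against 1490, 97 and 2310 CPM in iWAT. Markers of lymph node stroma and its specialised venules summed to 3.6, 2.91 and 2.41 CPM in scBAT, against 480, 34.6 and 662 CPM in iWAT. Libraries iWAT 1 and iWAT 3 were thus far above iWAT 2, which was itself above every scBAT library. The scBAT libraries in turn held markers of muscle and salivary gland. Skeletal muscle markers summed to 6990, 2490 and 2180 CPM in scBAT, against 197, 150 and 151 CPM in iWAT, with scBAT 1 highest. Salivary gland markers summed to 6840, 11500 and 2440 CPM in scBAT, against 326, 573 and 181 CPM in iWAT, with scBAT 2 highest and scBAT 3 lowest. Results were therefore also computed with iWAT 1 and iWAT 3 left out, a choice made after these values were seen. That leaves iWAT 2 as the lone iWAT library, assumed to vary like the libraries of the other depots.

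**Figure D1:**
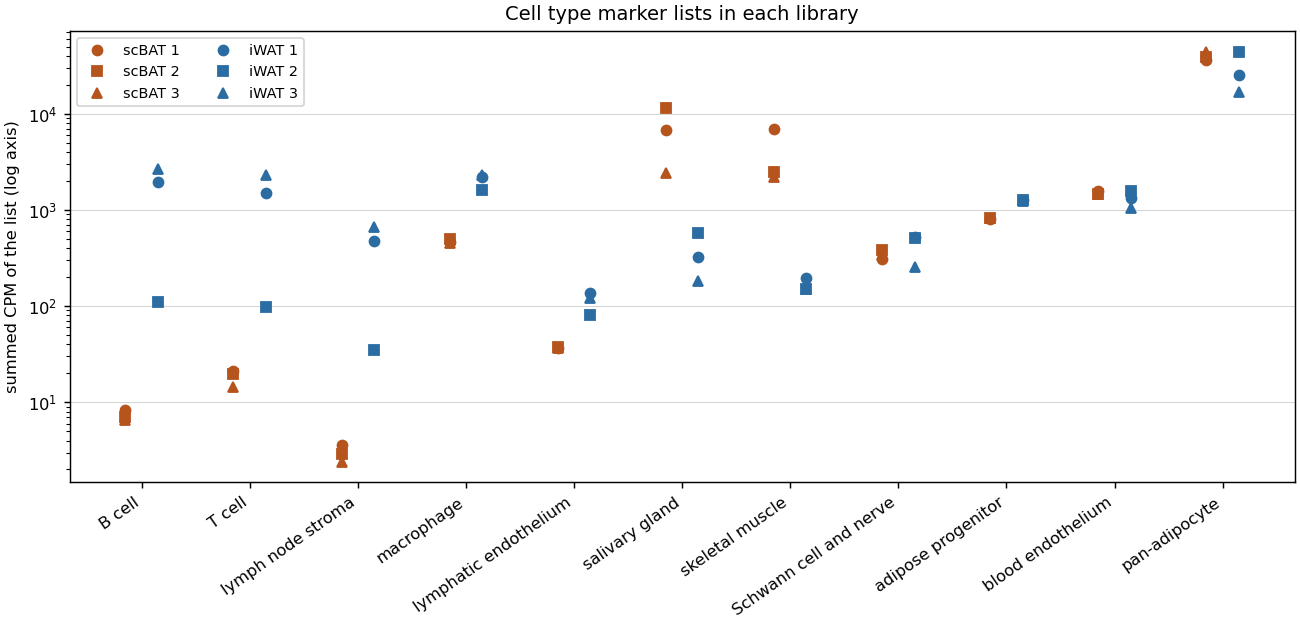
Summed CPM of the markers of 11 cell types in each library (log axis), with the scBAT libraries left of the iWAT libraries. B cell, T cell and lymph node markers were highest in iWAT 1 and iWAT 3, whereas skeletal muscle and salivary gland markers were highest in scBAT.

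Across all tested genes, 4192 were higher in scBAT than in iWAT and 4987 were lower, at a Benjamini-Hochberg adjusted p under 0.05 in edgeR's quasi-likelihood test. These 9179 genes were 61.6% of those tested (28.1% higher and 33.5% lower). Fitting the 6 scBAT and iWAT libraries alone gave fewer calls, 3082 higher and 3482 lower. In the fit of all 12 libraries, a 2-fold or larger difference was seen for 2168 genes higher and 3179 genes lower in scBAT. An 8-fold or larger one was seen there for 372 higher and 987 lower. The log2 difference, scBAT minus iWAT, had a median of -0.11 over all tested genes. With iWAT 1 and iWAT 3 left out, 3653 genes were higher (23.8%) and 3846 lower (25.0%) of 15374 tested, and the median was 0. Of the genes called with all libraries, 3078 were again called higher and 3004 again called lower, and none was called the other way. Counts within gene groups are read against these shares. The scBAT and iWAT libraries did not overlap for 4355 tested genes higher in scBAT and 4450 higher in iWAT. Among called genes, 89.1% had no overlap, so its absence is usual for a called gene and sets none apart. In whole tissue, fewer cells of a type and less RNA per cell cannot be told apart.

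The 10 genes most raised in scBAT, among those with a mean of 10 CPM or more in scBAT and no overlap between the depots, and leaving predicted gene models unnamed, were Prp2, Dcpp1, Dcpp3, Chia, Scgb1b27, Prb1, Prh1, Cst10, Crisp1 and Prpmp5, nearly all of them secretory products of salivary or related glands. Chia, an acidic chitinase, had 791, 1860 and 174 CPM in scBAT, against 1.3, 0.484 and 0.494 CPM in iWAT. Dcpp1, a secreted salivary protein, had 263, 484 and 63.3 CPM in scBAT, against 0.387, 0.132 and 0.0658 CPM in iWAT. In all 10 genes scBAT 2 was highest and scBAT 3 lowest of the scBAT libraries, the order of the salivary marker sum, and with iWAT 1 and iWAT 3 left out none of the 10 was called, although their log2 differences there were 9.55 to 14.18, against 9.80 to 10.46 with all libraries. The salivary marker sum itself includes Dcpp1 and Dcpp3, so for these the shared order is partly built in. Dcpp1 and Dcpp3, and likewise the proline-rich protein genes Prp2, Prb1, Prh1 and Prpmp5, belong to families of closely similar copies, so their separate values are uncertain. Of 11 tested salivary markers, 10 were higher in scBAT, at a median log2 difference of 5.19 over the list. With iWAT 1 and iWAT 3 left out, 1 of 12 tested was called higher, at a median of 8.79. The submandibular gland gene Smgc had no count, and the part of gland RNA in the results was not tested.

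The 10 most lowered genes, among those with a mean of 10 CPM or more in iWAT and no overlap, and with 1 predicted gene model left unnamed, were Glycam1, Marco, Hoxc10, Dapl1, Serpina10, Ngp, Hoxc8, Pax5, Tnfrsf13c and Col6a4. Glycam1, the mucin-like ligand of L-selectin on lymph node venules, had 0, 0 and 0 CPM in scBAT, against 121, 7.66 and 159 CPM in iWAT. Against a floor of 3 counts over the scBAT libraries, it was at least 1720-fold lower in scBAT. Marco, a scavenger receptor of macrophages, had 0, 0 and 0 CPM in scBAT, against 99.3, 5.81 and 135 CPM in iWAT, at least 1440-fold lower in scBAT. The B cell factor Pax5 was 1670-fold lower in scBAT, with a wide 95% counting interval of 300 to 66100. In Glycam1 and Marco the iWAT 1 and iWAT 3 values were over 10 times the iWAT 2 value, as in the lymphoid sums. Glycam1 is itself part of the lymph node sum. Counting intervals and floors cover counting error only.

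A narrower set was formed after the data were seen. It took genes with a mean of 50 CPM or more in whichever depot was higher and no overlap between scBAT and iWAT. They were called in scBAT against iWAT, with and without iWAT 1 and iWAT 3, at 4-fold or more in both settings. In iBAT against eWAT a difference of 4-fold or more in the same direction was asked, without a test. The set held 125 genes higher in the brown depot of both pairs and 110 genes lower. Dio2, the deiodinase that turns thyroxine into active thyroid hormone inside the cell, had 98, 168 and 184 CPM in scBAT, against 1.34, 1.1 and 0.823 CPM in iWAT (log2 difference 7.11, SE 0.47, adjusted p = 3.51e-06). Ucp1 had 1950, 1560 and 2400 CPM in scBAT, against 15.7, 32 and 18.7 CPM in iWAT (log2 difference 6.48, SE 0.60, adjusted p = 1.63e-05). Ucp1 averaged 2170 CPM in iBAT and 45.6 CPM in eWAT, and its log2 difference from iWAT was 5.94 without iWAT 1 and iWAT 3. For both genes even the lowest scBAT library stood far above the highest iWAT library.

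Several of the other genes of this set handle lipids or their precursors. Slc27a2, a fatty acid transport protein that also activates very long chain fatty acids, had 249, 259 and 311 CPM in scBAT, against 2.29, 11.4 and 6.35 CPM in iWAT. Fabp3, the heart-type fatty acid binding protein, had 188, 99.4 and 199 CPM in scBAT, against 1.65, 4.71 and 2.21 CPM in iWAT. Acot11, an acyl-CoA thioesterase of brown fat, had 284, 377 and 340 CPM in scBAT, against 7.81, 14.1 and 12.2 CPM in iWAT. For these 3 genes the log2 differences were 5.36, 5.85 and 4.87, with SEs of 0.56, 0.55 and 0.31, and iWAT 2 was the highest iWAT library. Pank1, the pantothenate kinase that starts coenzyme A synthesis, had 463, 439 and 488 CPM in scBAT, against 15, 33.4 and 19 CPM in iWAT (log2 difference 4.37, SE 0.34, adjusted p = 7e-06). Me3, the mitochondrial malic enzyme that makes NADPH, had 106, 97.7 and 103 CPM in scBAT, against 1.48, 3.48 and 1.74 CPM in iWAT (log2 difference 5.54, SE 0.32, adjusted p = 1.94e-06). Both of these genes were far above every iWAT library in each scBAT library. Kng2, a kininogen, had 103, 55.1 and 96.2 CPM in scBAT, against 0.809, 1.5 and 0.56 CPM in iWAT (log2 difference 6.50, SE 0.48, adjusted p = 5.54e-06). Mapt, the microtubule protein tau known from neurons, had 87.2, 57.3 and 64 CPM in scBAT, against 1.93, 4.01 and 1.19 CPM in iWAT (log2 difference 4.89, SE 0.42, adjusted p = 1.13e-05). That no scBAT library overlapped an iWAT library for these genes was a condition of the set.

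Among the 110 genes lower in both brown depots, Nnat, the imprinted gene for neuronatin, had 29.4, 37.9 and 89.2 CPM in scBAT, against 802, 1470 and 480 CPM in iWAT (log2 difference -4.14, SE 0.54, adjusted p = 0.000119). Sncg, which encodes gamma-synuclein, had 13.5, 13.9 and 21.8 CPM in scBAT, against 294, 543 and 146 CPM in iWAT (log2 difference -4.32, SE 0.44, adjusted p = 2.66e-05). Slc7a10, a neutral amino acid transporter used as a white adipocyte marker, had 7.02, 13 and 17.8 CPM in scBAT, against 172, 315 and 87.1 CPM in iWAT (log2 difference -3.92, SE 0.49, adjusted p = 9.12e-05). In all 3, iWAT 2 was highest and iWAT 3 lowest, and even iWAT 3 lay above every scBAT library, as the set required. Dock11, an activator of the small GTPase Cdc42, had 8.32, 9.52 and 8.94 CPM in scBAT, against 193, 125 and 212 CPM in iWAT (log2 difference -4.30, SE 0.20, adjusted p = 1.34e-06). Cfb, complement factor B, had 31.3, 37.1 and 40.8 CPM in scBAT, against 442, 636 and 342 CPM in iWAT (log2 difference -3.70, SE 0.25, adjusted p = 3.54e-06). Serpina3n, a secreted inhibitor of serine proteases, had 6.9, 12.1 and 15.9 CPM in scBAT, against 275, 441 and 170 CPM in iWAT (log2 difference -4.67, SE 0.45, adjusted p = 2.12e-05). The depots did not overlap for these 3 genes, as the set required. Ffar2, a receptor for short chain fatty acids, had 1.8, 3.75 and 4.44 CPM in scBAT, against 39, 87.5 and 29 CPM in iWAT, a log2 difference of -3.95 with an SE of 0.46. Values of Dock11 were lowest in iWAT 2 and those of Cfb, Serpina3n and Ffar2 highest there.

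**Figure D2:**
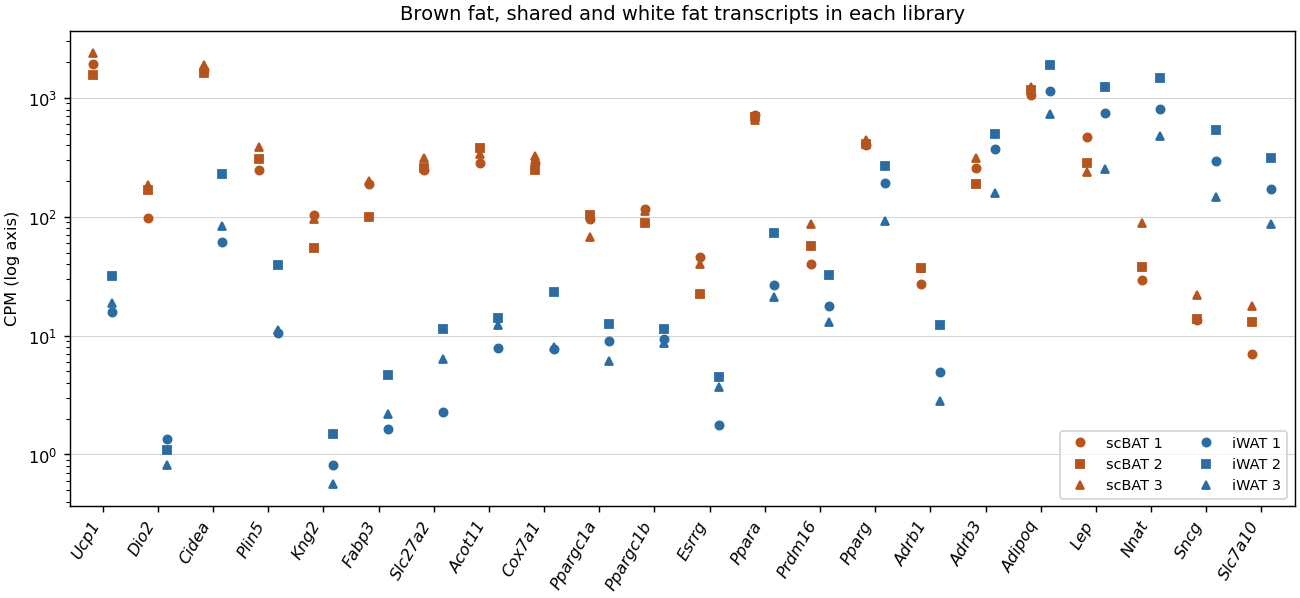
CPM of 22 genes in each library on a log axis, with scBAT left of iWAT. Ucp1, Dio2 and Kng2 were higher in scBAT, Nnat, Sncg and Slc7a10 were higher in iWAT, and Adipoq and Lep overlapped. The genes named here as higher in a depot belong to a set that required absence of overlap.

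Promoters of 4 genes that were higher in scBAT are shown because they hold a complete cyclic AMP response element or a complete core of the nuclear respiratory factor 1 (NRF1) site. Each is the RefSeq sequence (GRCm38.p6) of the 180 bases before the gene's start, 5′ to 3′ on the gene's strand, and capitals mark the matches. The Dio2 window lies at chr12:90739039-90739218 on the minus strand, the Ppara window at chr15:85735596-85735775 on the plus strand, the Cycs window at chr6:50566570-50566749 on the minus strand, and the Ndufa11 window at chr17:56717582-56717761 on the plus strand.
Dio2: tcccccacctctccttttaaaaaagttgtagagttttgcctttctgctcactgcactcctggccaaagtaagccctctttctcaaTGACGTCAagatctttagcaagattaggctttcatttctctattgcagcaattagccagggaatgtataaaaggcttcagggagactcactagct
Ppara: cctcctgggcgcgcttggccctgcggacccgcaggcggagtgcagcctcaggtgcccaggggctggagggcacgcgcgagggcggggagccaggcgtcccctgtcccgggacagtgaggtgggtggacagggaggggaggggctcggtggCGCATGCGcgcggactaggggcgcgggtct
Cycs: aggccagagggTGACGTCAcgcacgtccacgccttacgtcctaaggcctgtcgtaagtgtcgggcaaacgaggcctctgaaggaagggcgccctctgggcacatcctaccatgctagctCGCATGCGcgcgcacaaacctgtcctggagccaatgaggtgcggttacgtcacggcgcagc
Ndufa11: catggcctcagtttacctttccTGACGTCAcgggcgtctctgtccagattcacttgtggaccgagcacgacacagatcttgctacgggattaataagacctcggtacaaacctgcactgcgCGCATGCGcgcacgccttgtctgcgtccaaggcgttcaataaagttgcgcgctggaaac
The cyclic AMP response element was searched as TGACGTCA and the NRF1 core as CGCATGCG, both read the same on either strand. In Dio2 the element began 95 bases before the start, and in Ppara the NRF1 core began 30 bases before it. Cycs held the element 169 bases and the NRF1 core 61 bases before the start, and Ndufa11 held them 158 and 59 bases before it. In windows of 250 bases before to 50 bases after the start, the element was in 3.29% and the NRF1 core in 3.88% of 11764 matched promoters, which are 79.0% of the tested genes. Among the 33 complex I genes with a promoter in the table, 3 held the element and 2 the core. Among 35 such genes of complexes II to V, 2 held the element and 8 the core. Because 78.5% of the genes lower in scBAT matched a promoter, below the 80% needed, a comparison of motif shares between higher and lower genes is void. A match describes letters in the window and is not a shown binding site.

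The regulators of the brown fat program did not all differ alike. Of 32 tested, 17 were higher in scBAT and 6 lower, and the median log2 difference was 0.46. With iWAT 1 and iWAT 3 left out, 11 were higher and 6 lower, with a median of 0.51, and without scBAT 1 there were 3 lower. Ppargc1a, the coactivator that drives mitochondrial gene expression after cold, had 96.4, 103 and 67.4 CPM in scBAT, against 9.04, 12.5 and 6.12 CPM in iWAT (log2 difference 3.27, SE 0.28, adjusted p = 1.04e-05). Its relative Ppargc1b had 117, 89.1 and 111 CPM in scBAT, against 9.35, 11.3 and 8.66 CPM in iWAT (log2 difference 3.44, SE 0.17, adjusted p = 1.34e-06). Ppara, the nuclear receptor that switches on fatty acid oxidation, had 724, 690 and 655 CPM in scBAT, against 26.6, 72.7 and 21.2 CPM in iWAT (log2 difference 4.10, SE 0.42, adjusted p = 2.9e-05). Each of these genes had scBAT libraries far above all iWAT libraries. The estrogen-related receptors, partners of these coactivators at mitochondrial genes, were also higher in scBAT. Esrra had 231, 213 and 257 CPM in scBAT, against 48.1, 68.9 and 46.6 CPM in iWAT (log2 difference 2.10, SE 0.15, adjusted p = 4.51e-06), and Esrrg had 46.1, 22.6 and 40.3 CPM in scBAT, against 1.76, 4.49 and 3.69 CPM in iWAT (log2 difference 3.46, SE 0.50, adjusted p = 0.000218).

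Lineage factors gave log2 differences between 1.17 and 2.06. Pparg, the master regulator of all adipocytes, had 399, 412 and 441 CPM in scBAT, against 194, 270 and 91.5 CPM in iWAT (log2 difference 1.17, SE 0.31, adjusted p = 0.00777). Ebf2, which opens brown fat enhancers, had 94.5, 169 and 148 CPM in scBAT, against 26.9, 56.6 and 15.3 CPM in iWAT (log2 difference 2.06, SE 0.44, adjusted p = 0.00224), and without iWAT 1 and iWAT 3 its log2 difference was 1.28 at an adjusted p of 0.0621. Prdm16, a coregulator that sets brown against muscle and white fate, had 40.4, 56.9 and 86.9 CPM in scBAT, against 17.7, 32.4 and 13.1 CPM in iWAT (log2 difference 1.54, SE 0.35, adjusted p = 0.00344). Without iWAT 1 and iWAT 3 the Prdm16 difference was 0.92, and neither Ebf2 nor Prdm16 was called. That setting leaves iWAT 2 alone, so a lost call there cannot show whether these calls depend on the libraries left out. The 6 regulators lower in scBAT had mixed roles, among them Nrf1 and the corepressors of oxidative genes Nrip1 and Rbl1. Nrip1, known as RIP140, had 26.2, 30 and 25.1 CPM in scBAT, against 79.4, 126 and 51.5 CPM in iWAT (log2 difference -1.66, SE 0.29, adjusted p = 0.000713), and Rbl1, the pocket protein p107, had 8.08, 8.4 and 7.1 CPM in scBAT, against 44.5, 24.4 and 55.4 CPM in iWAT (log2 difference -2.40, SE 0.25, adjusted p = 3.4e-05). Rbl1 was highest in iWAT 1 and iWAT 3, as were the lymphoid markers. Irf4, an induced partner of Ppargc1a in brown fat, and Zfp516, an activator of Ucp1, did not pass the test, at adjusted p of 0.999 and 0.104. Zfp423, a factor that holds back the thermogenic program in white fat, had 15.1, 16.2 and 24 CPM in scBAT, against 31.4, 56.8 and 16.4 CPM in iWAT, lower in scBAT at an adjusted p of 0.0437. The Zfp423 groups overlapped, and without iWAT 2 the adjusted p was 0.209.

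Genes of uncoupling and heat production were mostly higher in scBAT, 17 of 22 tested, with 2 lower and a median log2 difference of 1.98. Without iWAT 1 and iWAT 3 the median was 1.54. Cidea, a lipid droplet protein abundant in brown fat, had 1710, 1620 and 1900 CPM in scBAT, against 61, 229 and 84.2 CPM in iWAT (log2 difference 3.81, SE 0.60, adjusted p = 0.000389). Letmd1, a mitochondrial protein needed for brown fat heat production in mice, had 697, 657 and 806 CPM in scBAT, against 57.6, 85.2 and 58.4 CPM in iWAT (log2 difference 3.42, SE 0.19, adjusted p = 1.57e-06). No iWAT library came near scBAT for either gene. Gyk, the glycerol kinase that reuses glycerol from lipolysis, had 182, 177 and 211 CPM in scBAT, against 12.4, 17.2 and 12.1 CPM in iWAT (log2 difference 3.77, SE 0.22, adjusted p = 1.94e-06). Kcnk3, a potassium channel enriched in brown adipocytes, had 573, 588 and 643 CPM in scBAT, against 45.3, 124 and 36.1 CPM in iWAT (log2 difference 3.14, SE 0.39, adjusted p = 9.24e-05). The depots did not overlap for any of these, and for Cidea and Kcnk3 the iWAT 2 value was well above those of the other iWAT libraries. The uncoupling protein relatives split. Ucp3, found in muscle and brown fat, had 160, 204 and 230 CPM in scBAT, against 34.8, 104 and 25.7 CPM in iWAT (log2 difference 1.85, SE 0.43, adjusted p = 0.00389), whereas Ucp2, abundant in immune cells, had 78.3, 93.3 and 73.3 CPM in scBAT, against 317, 169 and 390 CPM in iWAT (log2 difference -1.84, SE 0.25, adjusted p = 0.000139). Ucp2 was highest in iWAT 1 and iWAT 3, as were the lymphoid markers.

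Other heat-producing cycles involve creatine and calcium. Gatm, which makes the creatine precursor, was lower in scBAT with 5.28, 3.81 and 3.43 CPM in scBAT, against 13.6, 11.1 and 7.9 CPM in iWAT (log2 difference -1.38, SE 0.30, adjusted p = 0.00262), and the creatine transporter Slc6a8 was higher with 116, 70 and 74.2 CPM in scBAT, against 18.2, 31 and 12.3 CPM in iWAT (log2 difference 2.08, SE 0.37, adjusted p = 0.000716). Ckb, the brain-type creatine kinase, had 28.3, 20.2 and 28.9 CPM in scBAT, against 29.3, 31.8 and 19.5 CPM in iWAT, with overlapping groups and a log2 difference of -0.06 at an adjusted p of 0.851. Gatm and Slc6a8 did not overlap between the depots, and within scBAT both were highest in scBAT 1, as the skeletal muscle markers were. Atp2a2, the calcium pump of the beige calcium cycle, had 367, 393 and 418 CPM in scBAT, against 189, 249 and 162 CPM in iWAT (log2 difference 0.97, SE 0.15, adjusted p = 0.000311). The muscle pump Atp2a1 had 1120, 384 and 324 CPM in scBAT, against 12.7, 6.78 and 7.34 CPM in iWAT, and the sarcomeric mitochondrial creatine kinase Ckmt2 had 59.1, 22.2 and 19.7 CPM in scBAT, against 0.949, 0.264 and 0.198 CPM in iWAT. Both had scBAT 1 well above scBAT 2 and scBAT 3, as the skeletal muscle markers did, of which 17 of 20 tested were higher in scBAT with a median log2 difference of 5.21. The slow fibre genes Myh7, Tnnt1 and Tnni1 were the muscle markers that did not pass the test, and the part of muscle RNA in these values was not tested.

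In the adrenergic and cyclic AMP pathway, 16 of 31 tested members were higher in scBAT and 5 lower, with a median log2 difference of 0.63. The median was 0.37 without iWAT 1 and iWAT 3. The receptors showed several patterns. Adra1a, an alpha-1 receptor that raises calcium, had 110, 93.7 and 130 CPM in scBAT, against 6.72, 21.5 and 6.75 CPM in iWAT (log2 difference 3.26, SE 0.41, adjusted p = 9.02e-05). Adrb1, the beta-1 receptor, had 27.3, 36.9 and 37.4 CPM in scBAT, against 4.92, 12.2 and 2.8 CPM in iWAT (log2 difference 2.36, SE 0.43, adjusted p = 0.000946). Adrb3, the beta-3 receptor typical of rodent adipocytes, had 260, 189 and 314 CPM in scBAT, against 373, 496 and 160 CPM in iWAT, and the groups overlapped at a log2 difference of -0.43 and an adjusted p of 0.294. Without iWAT 1 and iWAT 3, Adrb3 was lower in scBAT, at -0.97 and an adjusted p of 0.0116. Adra2a, the alpha-2 receptor that lowers cyclic AMP, had 0.124, 0.448 and 0.19 CPM in scBAT, against 4.5, 1.19 and 5.33 CPM in iWAT (log2 difference -3.81, SE 0.75, adjusted p = 0.00137), with its highest values in iWAT 1 and iWAT 3.

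Beyond the receptors, the adenylyl cyclases that make cyclic AMP also split. Adcy3 had 176, 246 and 256 CPM in scBAT, against 33.9, 58.8 and 30.2 CPM in iWAT (log2 difference 2.47, SE 0.26, adjusted p = 3.41e-05), and Adcy5 had 17.6, 42.6 and 36.5 CPM in scBAT, against 119, 283 and 78.1 CPM in iWAT (log2 difference -2.31, SE 0.52, adjusted p = 0.00304). Every scBAT library lay above every iWAT library for Adcy3 and below for Adcy5. Pde4d, a phosphodiesterase that breaks cyclic AMP down, had 162, 227 and 275 CPM in scBAT, against 28.9, 36.5 and 34 CPM in iWAT (log2 difference 2.74, SE 0.23, adjusted p = 1.07e-05), and Prkaca, the catalytic subunit of protein kinase A, was higher in scBAT by 1.58 on the log2 scale. Pde4b, another phosphodiesterase, and Creb1, the factor that binds the cyclic AMP response element, were lower in scBAT by log2 differences of -2.12 and -1.02. Neither passed the test without iWAT 1 and iWAT 3, at -0.29 and -0.19.

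Of 11 tested thyroid hormone genes, 7 were higher in scBAT, the other 4 did not pass the test and the median was 0.73. Without iWAT 2, 2 were lower, and without iWAT 3 or without iWAT 1 and iWAT 3, 1 was. Besides Dio2, Thrb, the beta receptor, had 90.9, 93.8 and 83.9 CPM in scBAT, against 23.3, 45.5 and 20.2 CPM in iWAT (log2 difference 1.59, SE 0.27, adjusted p = 0.000537). Thrsp, a hormone-responsive gene of lipid synthesis, had 1960, 2140 and 2100 CPM in scBAT, against 518, 960 and 404 CPM in iWAT (log2 difference 1.72, SE 0.28, adjusted p = 0.000446). In both the iWAT 2 value stood nearest to scBAT.

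Nearly the whole respiratory chain was higher in scBAT. All 36 tested complex I genes were higher in scBAT, by log2 differences between 1.48 and 2.66 with a median of 2.06, and all 36 were again higher without iWAT 1 and iWAT 3, at a median of 1.65. Ndufv1, a subunit that takes electrons from NADH, had 1060, 987 and 1210 CPM in scBAT, against 139, 255 and 121 CPM in iWAT (log2 difference 2.66, SE 0.26, adjusted p = 2.14e-05). Ndufa11, an accessory subunit whose promoter is shown above, had 177, 171 and 192 CPM in scBAT, against 40.7, 64.1 and 38.3 CPM in iWAT (log2 difference 1.92, SE 0.18, adjusted p = 1.76e-05). Of 45 tested genes of complexes II to V, 41 were higher and 1 lower, with the same median of 2.06. Cox7a1, a cytochrome oxidase subunit of heart, muscle and brown fat, had 284, 247 and 323 CPM in scBAT, against 7.7, 23.1 and 8.1 CPM in iWAT (log2 difference 4.46, SE 0.53, adjusted p = 6.34e-05). Cox8b, another such subunit, had 374, 347 and 436 CPM in scBAT, against 26.9, 71.5 and 23.2 CPM in iWAT (log2 difference 3.25, SE 0.51, adjusted p = 0.00035). Cycs, cytochrome c, whose promoter is shown above, had 451, 401 and 486 CPM in scBAT, against 72, 118 and 62.5 CPM in iWAT (log2 difference 2.40, SE 0.23, adjusted p = 1.82e-05). The iWAT 2 library was highest of its depot for these genes and still far below the lowest scBAT library.

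The gene lower in scBAT was Atpif1, the inhibitor that keeps ATP synthase from running backwards, with 16.3, 15.7 and 19.6 CPM in scBAT, against 29.3, 26 and 30.4 CPM in iWAT (log2 difference -0.73, SE 0.12, adjusted p = 0.000529). Its groups did not overlap, and the difference was small beside those of the respiratory chain. Atp5g1, a gene for the membrane ring of ATP synthase, had 29.3, 27.7 and 18.5 CPM in scBAT, against 33.2, 33 and 35.5 CPM in iWAT, with a log2 difference of -0.43 at an adjusted p of 0.073. Genes that build and shape mitochondria were higher in 25 of 27 tested, with a median of 1.35, and 1 was lower. That 1 was Nrf1, whose core site was searched for in the promoters, with 19.1, 21.8 and 20.7 CPM in scBAT, against 34.1, 22.5 and 44.5 CPM in iWAT (log2 difference -0.71, SE 0.21, adjusted p = 0.0119). Without iWAT 1 and iWAT 3 its difference was -0.13 and not called.

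Fuel pathways that feed the chain were mostly higher in scBAT. The tricarboxylic acid cycle had 17 of 18 tested genes higher in scBAT with a median of 2.42, and the other, Ogdhl, did not pass the test. It was lower without iWAT 1, and likewise without iWAT 1 and iWAT 3. Sucla2, a subunit of succinyl-CoA synthetase, had 1550, 1410 and 1800 CPM in scBAT, against 139, 282 and 121 CPM in iWAT (log2 difference 3.14, SE 0.31, adjusted p = 2.14e-05). Of 39 tested genes of fatty acid uptake and oxidation, 29 were higher and 1 lower with a median of 2.04, and 26 were higher and 4 lower without iWAT 1 and iWAT 3. Acaa2, the thiolase that ends the mitochondrial oxidation spiral, had 2210, 1910 and 2360 CPM in scBAT, against 147, 332 and 150 CPM in iWAT (log2 difference 3.36, SE 0.32, adjusted p = 1.96e-05). The exception was Cpt1a, the liver isoform of the enzyme that admits fatty acids into mitochondria, with 34.5, 39 and 36.3 CPM in scBAT, against 84.9, 89.3 and 85.5 CPM in iWAT (log2 difference -1.24, SE 0.09, adjusted p = 4.27e-06). Cpt1a varied little within either depot. The muscle isoform Cpt1b was higher in scBAT with 2.55, 1.29 and 1.78 CPM in scBAT, against 0.105, 0.396 and 0.165 CPM in iWAT (log2 difference 3.09, SE 0.51, adjusted p = 0.000494). Its CPM values were low in both depots, and muscle RNA was highest in scBAT 1, where Cpt1b was also highest.

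Glucose handling showed isoform differences. Of 27 tested genes of glucose uptake and glycolysis, 18 were higher in scBAT and 5 lower, with a median of 1.83. Slc2a4, the insulin-responsive transporter GLUT4, had 829, 952 and 823 CPM in scBAT, against 200, 373 and 104 CPM in iWAT (log2 difference 1.94, SE 0.36, adjusted p = 0.00096), and Hk2, the hexokinase paired with it, had 571, 869 and 687 CPM in scBAT, against 112, 205 and 65.5 CPM in iWAT (log2 difference 2.48, SE 0.39, adjusted p = 0.000375). Ldhb, the lactate dehydrogenase subunit of oxidative tissues, had 643, 629 and 710 CPM in scBAT, against 51.4, 103 and 43.7 CPM in iWAT (log2 difference 3.32, SE 0.29, adjusted p = 1.17e-05). Slc2a4, Hk2 and Ldhb did not overlap between the depots. Lower in scBAT were the transporters Slc2a1 and Slc2a3, the hexokinases Hk1 and Hk3 and the enolase Eno2, by log2 differences of -1.23, -2.83, -1.24, -2.34 and -2.61. Pyruvate entry had 11 of 13 tested genes higher and 1 lower, with a median of 2.11. Pdk4, the kinase that shuts pyruvate dehydrogenase during fatty acid use, had 1520, 1430 and 2090 CPM in scBAT, against 66.7, 308 and 139 CPM in iWAT (log2 difference 3.30, SE 0.51, adjusted p = 0.000329). Pdk3, a related kinase, had 3.17, 2.8 and 2.16 CPM in scBAT, against 17.3, 8.89 and 22.8 CPM in iWAT (log2 difference -2.59, SE 0.32, adjusted p = 9.12e-05). For Pdk3 and Slc2a3 the iWAT 1 and iWAT 3 values were the highest, as for lymphoid markers.

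Branched-chain amino acid breakdown had 19 of 21 tested genes higher in scBAT and 1 lower. The median of the list was 1.24, or 0.67 without iWAT 1 and iWAT 3. Slc25a44, the mitochondrial carrier for these amino acids in brown fat, was higher by 1.34 on the log2 scale, and Bckdha, a subunit of the dehydrogenase, by 2.05. Bcat1, the cytosolic aminotransferase, was lower at -2.63. Among 31 tested genes of heme, iron and antioxidant defence, 24 were higher and 2 lower. Their median was 1.06, or 0.6 without iWAT 1 and iWAT 3. Sod2, the mitochondrial superoxide dismutase, was higher by 2.31, whereas Hmox1, the heme oxygenase abundant in macrophages, and Slc25a37, an iron carrier, were lower at -1.53 and -1.78.

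Lipid synthesis genes were also mostly higher in scBAT, 16 of 21 tested with 3 lower and a median of 1.39, and 13 were higher without iWAT 1 and iWAT 3. Fasn, fatty acid synthase, had 16600, 18500 and 16800 CPM in scBAT, against 3380, 5980 and 2660 CPM in iWAT (log2 difference 2.11, SE 0.33, adjusted p = 0.000355). Elovl6, which lengthens palmitate, had 1550, 1980 and 1690 CPM in scBAT, against 168, 377 and 180 CPM in iWAT (log2 difference 2.85, SE 0.36, adjusted p = 0.000106). Elovl3, an elongase of brown fat induced by cold, had 7.39, 23.5 and 17.4 CPM in scBAT, against 0.246, 0.836 and 0.494 CPM in iWAT (log2 difference 4.95, SE 0.60, adjusted p = 7.67e-05). Those 3 genes showed no overlap between depots. The desaturases Fads1 and Fads3 and the elongase Elovl1 were lower, and Fads3 had 59.2, 56.1 and 57.3 CPM in scBAT, against 343, 603 and 184 CPM in iWAT (log2 difference -2.71, SE 0.34, adjusted p = 9.07e-05). Genes of triglyceride synthesis, lipolysis and the droplet had 19 of 31 tested higher and 1 lower, with a median of 0.99. Without iWAT 1 and iWAT 3 they had 14 higher and 5 lower. Plin5, the droplet protein that ties droplets to mitochondria, had 248, 307 and 389 CPM in scBAT, against 10.5, 39 and 11.2 CPM in iWAT (log2 difference 3.96, SE 0.49, adjusted p = 8.45e-05). Without scBAT 1 the single lower call, Mogat1, was lost at an adjusted p of 0.0742, and without iWAT 3 there were 2 lower. Cholesterol genes had 11 of 26 tested higher and 3 lower, with a median of 0.25.

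**Figure D3:**
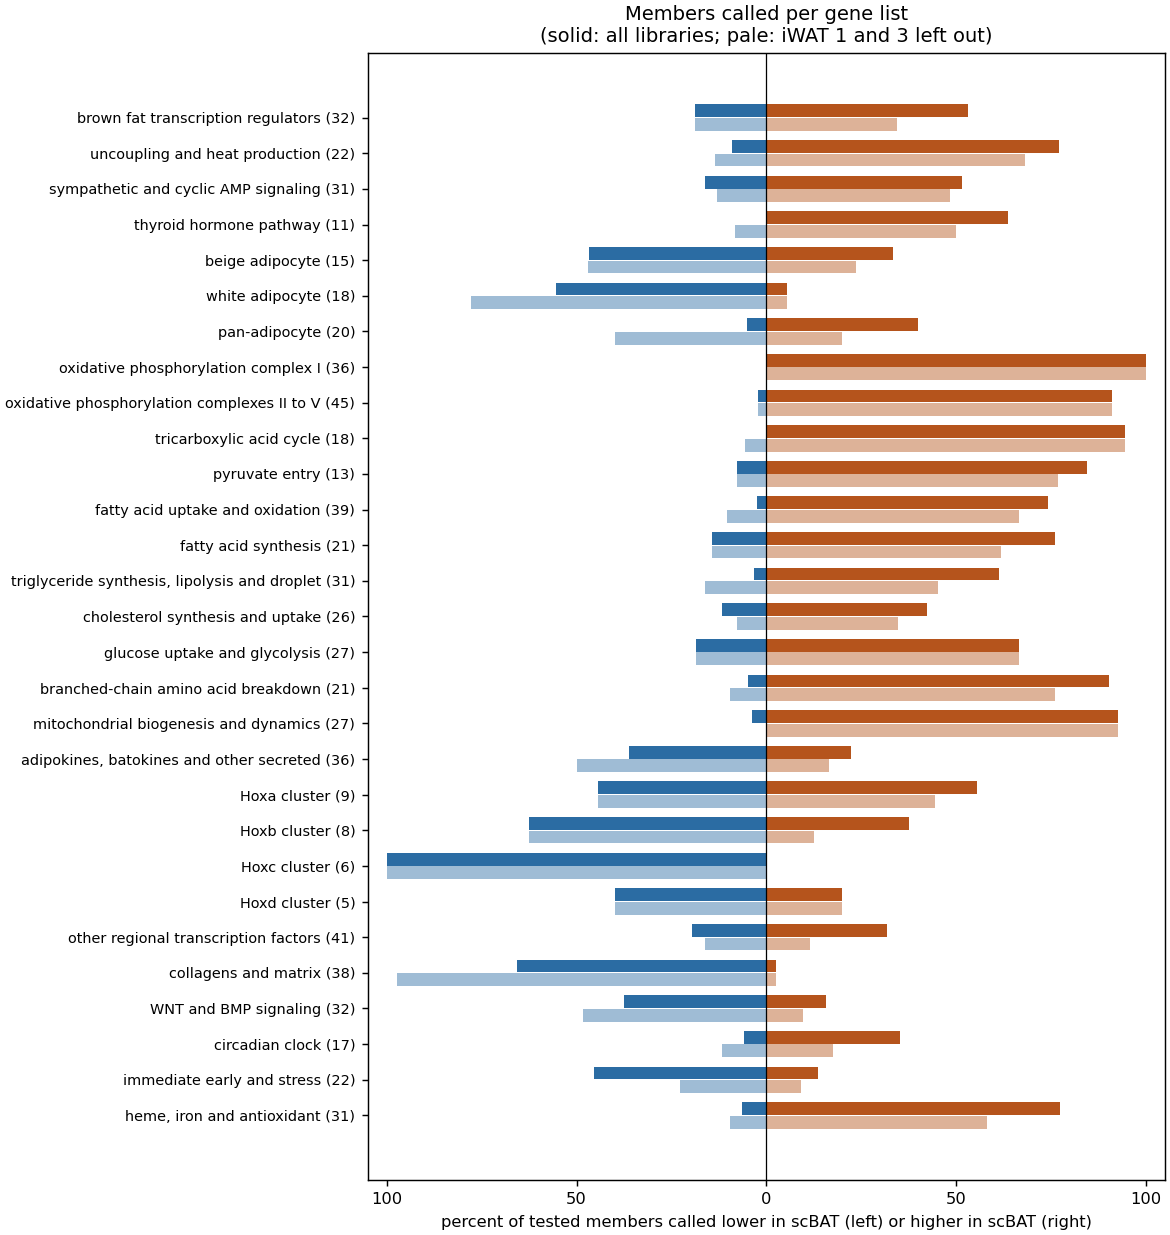
Percent of tested members of each gene list called higher or lower in scBAT than in iWAT, with all libraries in solid colour and with iWAT 1 and iWAT 3 left out in pale colour. All complex I genes were higher in both settings, whereas the pan-adipocyte list had 8 higher and 1 lower of 20 with all libraries, and 4 higher and 8 lower without iWAT 1 and iWAT 3.

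White adipocyte markers were mostly lower in scBAT. Of 18 tested, 10 were lower in scBAT and 1 higher, with a median log2 difference of -1.85, and without iWAT 1 and iWAT 3, 14 were lower at a median of -2.51. Their summed level was 2580, 2810 and 2690 CPM in scBAT, against 5610, 9970 and 3040 CPM in iWAT, with iWAT 3 close to scBAT. Lep, leptin, had 466, 284 and 238 CPM in scBAT, against 744, 1240 and 251 CPM in iWAT, and the groups overlapped at a log2 difference of -1.18 and an adjusted p of 0.0739. Without iWAT 1 and iWAT 3 its difference was -1.91 at an adjusted p of 0.0244. Mest, an imprinted gene tied to fat pad growth, had 7.7, 7.73 and 8.5 CPM in scBAT, against 53, 142 and 22.7 CPM in iWAT (log2 difference -3.18, SE 0.54, adjusted p = 0.000593), and Npr3, the clearance receptor for natriuretic peptides, had 190, 132 and 128 CPM in scBAT, against 511, 915 and 199 CPM in iWAT (log2 difference -1.85, SE 0.44, adjusted p = 0.00396). The exception was Vldlr, the very low density lipoprotein receptor, with 467, 510 and 507 CPM in scBAT, against 84.5, 196 and 52.6 CPM in iWAT (log2 difference 2.16, SE 0.37, adjusted p = 0.000643). Without iWAT 2, 2 of the markers were higher.

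Genes common to all adipocytes depended on which iWAT libraries were kept. Of 20 tested, 8 were higher in scBAT and 1 lower, with a median of 0.50. The count of higher genes was 4 without scBAT 3, 3 without iWAT 1, 13 without iWAT 2 and 5 without iWAT 3. With iWAT 1 and iWAT 3 both left out, 4 were higher and 8 lower. Adipoq, adiponectin, had 1060, 1170 and 1230 CPM in scBAT, against 1150, 1880 and 738 CPM in iWAT, with overlapping groups and a log2 difference of -0.12 at an adjusted p of 0.713. Cfd, the secreted protease adipsin, had 1090, 1150 and 1150 CPM in scBAT, against 2020, 3050 and 1440 CPM in iWAT (log2 difference -0.94, SE 0.24, adjusted p = 0.00601), and it was the member called lower. Gpd1, the glycerol phosphate dehydrogenase that feeds triglyceride synthesis, had 4880, 5090 and 5880 CPM in scBAT, against 1000, 1960 and 685 CPM in iWAT (log2 difference 2.12, SE 0.34, adjusted p = 0.000384). The summed level of the list was 36200, 39100 and 44100 CPM in scBAT, against 25300, 43900 and 16800 CPM in iWAT. Without iWAT 1 and iWAT 3, Adipoq was lower in scBAT, at -0.71 and an adjusted p of 0.000622. The iWAT 2 sum of the list lay within the scBAT range, above scBAT 2, and those of iWAT 1 and iWAT 3 below it.

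Beige adipocyte markers split as well, with 5 of 15 tested higher in scBAT, 7 lower and a median of -0.40. Their median was -0.95 without iWAT 1 and iWAT 3. Tmem26, a surface marker used for beige cells, had 0.0621, 0.168 and 0.0634 CPM in scBAT, against 10, 2.64 and 12.2 CPM in iWAT, 87.4-fold lower in scBAT by counts (95% counting interval 37.3 to 270). Epsti1, Cd40, Tnfrsf9 and Sp100, which immune cells also express, were lower at -5.0, -4.23, -3.17 and -2.58. Those genes and Tmem26 were highest in iWAT 1 and iWAT 3, and the call of Tnfrsf9 was lost without them, at -0.95. Tbx1, a transcription factor used as a beige marker, had 14.2, 15.8 and 14.5 CPM in scBAT, against 2.99, 2.82 and 4.77 CPM in iWAT, higher in scBAT at an adjusted p of 0.0128. Its log2 difference was 2.07 with all libraries, 1.96 without iWAT 1, where the adjusted p was 0.0524, and 2.40 without iWAT 1 and iWAT 3, where it was 0.0717. P2rx5, an ATP-gated channel of brown fat, had 151, 175 and 160 CPM in scBAT, against 10.5, 23 and 8.86 CPM in iWAT (log2 difference 3.53, SE 0.31, adjusted p = 1.23e-05), and Slc36a2, an amino acid transporter also used as a brown marker, had 883, 898 and 1090 CPM in scBAT, against 150, 341 and 108 CPM in iWAT (log2 difference 2.26, SE 0.35, adjusted p = 0.000351).

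Secreted factors had 8 of 36 tested members higher in scBAT and 13 lower, beside 28.1% higher and 33.5% lower of all tested genes. Their median was -0.55, or -1.12 without iWAT 1 and iWAT 3. Without iWAT 2, 13 were higher. Pm20d1, an enzyme that makes uncoupling N-acyl amino acids, had 59.4, 47.4 and 58.8 CPM in scBAT, against 3.83, 8.14 and 2.63 CPM in iWAT (log2 difference 3.51, SE 0.36, adjusted p = 2.86e-05). Nampt, which makes a precursor of NAD and is also released, had 705, 846 and 831 CPM in scBAT, against 174, 326 and 149 CPM in iWAT (log2 difference 1.88, SE 0.26, adjusted p = 0.000184). Neither gene overlapped between the depots. Nrg4, a growth factor known from brown fat, was higher by 0.94 at an adjusted p of 0.0338, but at 0.117 without iWAT 1 and at 0.447 without iWAT 1 and iWAT 3, where the log2 difference was 0.16. Lower in scBAT were Sfrp5, a secreted WNT inhibitor, with 2.05, 1.9 and 1.97 CPM in scBAT, against 27, 46.2 and 6.81 CPM in iWAT (log2 difference -3.75, SE 0.64, adjusted p = 0.000572), and Inhbb, an activin subunit, with 10, 10 and 7.87 CPM in scBAT, against 50, 71 and 24.5 CPM in iWAT (log2 difference -2.38, SE 0.34, adjusted p = 0.000198). Fgf10, a growth factor for white adipocyte precursors, had 10.2, 10.9 and 13.9 CPM in scBAT, against 77.5, 123 and 32.7 CPM in iWAT (log2 difference -2.73, SE 0.38, adjusted p = 0.000181). Sfrp5, Inhbb and Fgf10 were each highest in iWAT 2 and lowest in iWAT 3.

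Hox genes, which mark position along the body axis, separated the neck depot from the groin depot cluster by cluster. Low-numbered genes of a cluster act toward the head and high-numbered genes toward the tail. In the Hoxa cluster, 5 of 9 tested genes were higher in scBAT and 4 lower. Hoxa4 had 20.4, 18.9 and 20.8 CPM in scBAT, against 1.16, 2.11 and 0.922 CPM in iWAT (log2 difference 3.85, SE 0.27, adjusted p = 4.03e-06), and Hoxa5 had 37.8, 30.3 and 39.1 CPM in scBAT, against 3.55, 5.59 and 3.03 CPM in iWAT (log2 difference 3.14, SE 0.21, adjusted p = 3.6e-06). Further along, Hoxa7 had 0.497, 0.896 and 0.952 CPM in scBAT, against 7.84, 13.9 and 4.91 CPM in iWAT (log2 difference -3.49, SE 0.39, adjusted p = 4.24e-05), and Hoxa10 had 0, 0 and 0 CPM in scBAT, against 8.19, 15.5 and 5.17 CPM in iWAT, at least 151-fold lower in scBAT. Hoxa9, with few counts in scBAT, was 43.8-fold lower there (95% counting interval 22.9 to 96.3). Hoxa6 was 6.77-fold lower by counts (3.43 to 15.2), so the direction turned between Hoxa5 and Hoxa6.

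In the Hoxb cluster, 3 of 8 tested genes were higher in scBAT and 5 lower. Hoxb2, Hoxb3 and Hoxb4 were higher by 1.15, 0.82 and 0.84, of which 1, Hoxb2, was called without iWAT 1 and iWAT 3. The Hoxb3 call was also lost without scBAT 3, at an adjusted p of 0.0527. Hoxb6, Hoxb7 and Hoxb8 were lower at -3.84, -4.66 and -5.41, and Hoxb9 had 0, 0 and 0 CPM in scBAT, against 2.5, 2.33 and 1.65 CPM in iWAT, at least 35.4-fold lower. All 6 tested Hoxc genes were lower in scBAT. Hoxc6 had 1.06, 0.84 and 2.03 CPM in scBAT, against 21, 39.4 and 13.5 CPM in iWAT (log2 difference -4.24, SE 0.42, adjusted p = 2.44e-05). Hoxc8 had 0.0621, 0 and 0.0634 CPM in scBAT, against 62.4, 112 and 35.9 CPM in iWAT, 1650-fold lower by counts (95% counting interval 456 to 13600). Hoxc10 had 0, 0 and 0 CPM in scBAT, against 17.5, 35.1 and 10.2 CPM in iWAT, at least 326-fold lower, and Hoxc9 was at least 148-fold lower. In every iWAT library these genes were present, highest in iWAT 2. Of 5 tested Hoxd genes, 1 was higher and 2 lower. Hoxd8, the higher one, had 19.1, 21.7 and 20.7 CPM in scBAT, against 10.7, 11.5 and 6.88 CPM in iWAT (log2 difference 1.08, SE 0.18, adjusted p = 0.000522), and Hoxd10, with no count in scBAT, was at least 18.5-fold lower there.

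**Figure D4:**
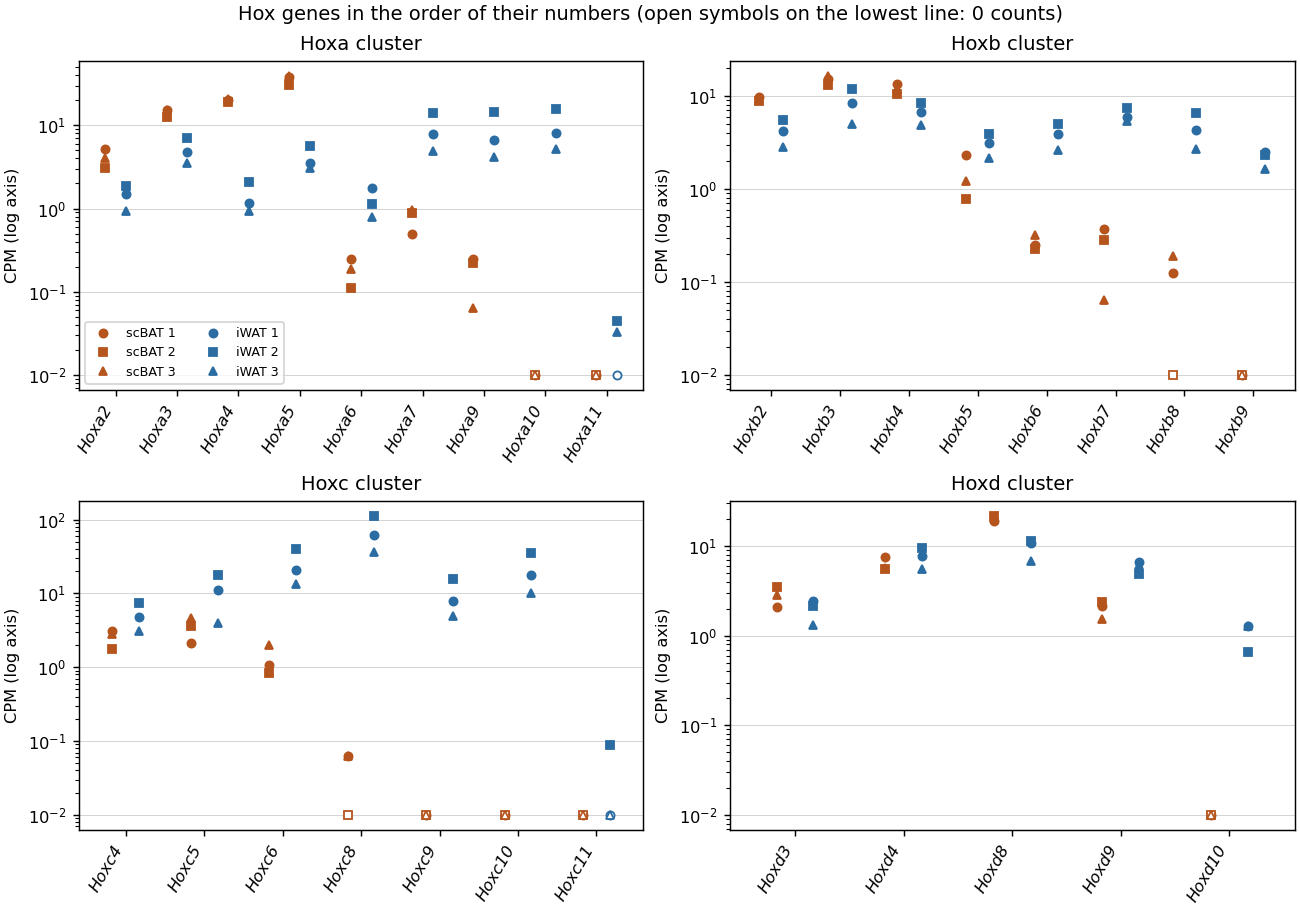
CPM of Hox genes in each scBAT and iWAT library, 1 panel per cluster on a log axis; open symbols at 0.01 mark libraries with 0 counts. In Hoxa and Hoxb the low-numbered genes were higher in scBAT and the high-numbered genes higher in iWAT, and all 6 tested Hoxc genes were higher in iWAT.

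Among 41 other tested regional transcription factors, 13 were higher in scBAT and 8 lower, with a median of 0.47. The count of higher genes was 5 without iWAT 1 and iWAT 3 and 20 without iWAT 2. Zic1, a marker of interscapular brown fat, had 0.683, 0.112 and 0.127 CPM in scBAT, against 0, 0 and 0 CPM in iWAT, a sum of 15 counts in scBAT, most of them in scBAT 1, and none in iWAT. Its mean in iBAT was 11 CPM, well above scBAT. En1, a limb and trunk patterning factor, had 0.124, 0 and 0.127 CPM in scBAT, against 2.67, 3.35 and 1.32 CPM in iWAT, 29.3-fold lower by counts (11.2 to 109). Prrx1, a factor of limb mesenchyme and fat precursors, had 17.8, 19 and 14.8 CPM in scBAT, against 57.5, 84.8 and 37.6 CPM in iWAT (log2 difference -1.80, SE 0.24, adjusted p = 0.000147). Tbx15, a T-box factor of fat, muscle and limb, had 28.7, 13.6 and 12.8 CPM in scBAT, against 21.5, 39.6 and 14.3 CPM in iWAT, and Lhx8, used as a brown marker, had 6.77, 3.87 and 5.52 CPM in scBAT, against 4.68, 4.53 and 3.19 CPM in iWAT. Both overlapped, with adjusted p of 0.413 and 0.367. Pax9, a factor of pharyngeal epithelium, had 6.65, 17.3 and 1.33 CPM in scBAT, against 0.0703, 0.044 and 0 CPM in iWAT, in the order of the salivary markers. Its log2 difference was 7.63 with all libraries and 7.41 without iWAT 1 and iWAT 3, where it was not called, at an adjusted p of 0.0867.

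Matrix genes were mostly lower in scBAT. Of 38 tested collagens and matrix genes, 25 were lower and 1 higher, with a median of -1.23, and without iWAT 1 and iWAT 3, 37 were lower and 1 higher. Col5a3, a fibrillar collagen chain, had 46.7, 49.3 and 44.7 CPM in scBAT, against 357, 634 and 152 CPM in iWAT (log2 difference -3.02, SE 0.40, adjusted p = 0.000126). Bgn, the small proteoglycan biglycan, had 80.5, 83.4 and 84 CPM in scBAT, against 245, 298 and 223 CPM in iWAT (log2 difference -1.63, SE 0.13, adjusted p = 7.93e-06). Mmp14, a membrane protease that cuts collagen, had 18, 14.2 and 19.3 CPM in scBAT, against 61.6, 66.8 and 56.1 CPM in iWAT (log2 difference -1.84, SE 0.12, adjusted p = 3.5e-06). All 3 were above every scBAT library in each iWAT library. The higher member was Col12a1, a collagen of tendon and muscle sheaths, with 25.7, 30.4 and 42.8 CPM in scBAT, against 13.6, 16.7 and 12.2 CPM in iWAT (log2 difference 1.22, SE 0.22, adjusted p = 0.000867). Without iWAT 2, 5 members were higher.

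In WNT and BMP signaling, 5 of 32 tested genes were higher in scBAT and 12 lower, with a median of -0.60. There were 3 higher without iWAT 1 and iWAT 3 and 9 without iWAT 2. Lgr6, a receptor that amplifies WNT signals, had 34.2, 15.5 and 38.4 CPM in scBAT, against 0.176, 0.088 and 0.0329 CPM in iWAT, 294-fold higher by counts (95% counting interval 149 to 681). Bmp3, an antagonist of other BMPs, had 1.49, 2.63 and 1.71 CPM in scBAT, against 32.9, 58.7 and 12.8 CPM in iWAT (log2 difference -4.15, SE 0.61, adjusted p = 0.000258), and Chrdl1, a BMP-binding inhibitor, was lower at -3.44. Clock genes had 6 of 17 tested higher and 1 lower, with 3 higher and 2 lower without iWAT 1 and iWAT 3 and 11 higher without iWAT 2. The lower clock gene was Arntl, whose protein BMAL1 drives the clock, with 2.24, 1.12 and 1.52 CPM in scBAT, against 15, 1.8 and 19.2 CPM in iWAT (log2 difference -2.89, SE 0.77, adjusted p = 0.00787). Its low values in iWAT 2 overlapped scBAT, and without iWAT 1 and iWAT 3 the difference was -0.15. Immediate early and stress genes had 3 of 22 tested higher and 10 lower, and between 4 and 5 lower without scBAT 1, without scBAT 2, without iWAT 1 or without iWAT 1 and iWAT 3. Without iWAT 2, 6 of them were higher.

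Markers of several other cell types differed too. All 11 B cell and all 14 T cell markers tested were lower in scBAT, with the sums given above. Macrophage markers were lower in 13 of 15 tested, with a median of -1.49, and in all 15 without iWAT 1 and iWAT 3. Itgam, the integrin CD11b, had 7.89, 8.18 and 7.04 CPM in scBAT, against 48.1, 42.7 and 45.3 CPM in iWAT (log2 difference -2.56, SE 0.13, adjusted p = 1.34e-06), at a like level in all 3 iWAT libraries. The macrophage sum was 468, 502 and 455 CPM in scBAT, against 2200, 1620 and 2330 CPM in iWAT. All 6 lymphatic endothelial markers were lower in scBAT, summing to 36.8, 37.8 and 36.5 CPM in scBAT, against 137, 81 and 121 CPM in iWAT. Adipose progenitor markers were lower in 6 of 11 tested and higher in 1, with Pdgfra, a progenitor receptor, at -1.23. Their sum was 810, 828 and 815 CPM in scBAT, against 1260, 1260 and 1240 CPM in iWAT, and the 1 higher call was lost without scBAT 1, while 2 were higher without iWAT 2. Blood endothelial markers had 3 of 11 tested higher and 2 lower, no more than the 28.1% and 33.5% of all tested genes. Their median was 0.27, or -0.03 without iWAT 1 and iWAT 3. Among them 1 was higher without iWAT 1 and 7 were higher without iWAT 2.

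Among nerve and Schwann cell markers, 4 of 9 tested were lower in scBAT and 1 higher. S100b, a calcium-binding protein of Schwann cells that brown adipocytes also secrete, had 58, 51.5 and 74.3 CPM in scBAT, against 3.9, 8.45 and 2.11 CPM in iWAT (log2 difference 3.68, SE 0.42, adjusted p = 5.38e-05). The count of lower markers was 2 without each of scBAT 1, scBAT 3, iWAT 1, iBAT 2 and eWAT 3. All 3 erythroid markers and 3 of 5 surface epithelial markers were higher, and 6 of 7 markers of lymph node stroma and 1 surface epithelial marker lower. Surface epithelial markers had 1 higher without iWAT 1 and iWAT 3, 5 higher without iWAT 2, and 2 lower without any single library other than iWAT 1 or iWAT 3. Mast cell markers had 2 of 6 tested higher and 4 lower. Of 9 tested smooth muscle and pericyte markers, 2 were higher and 1 lower, or 4 higher without iWAT 2 and 2 lower without iWAT 3. Mesothelial markers had 3 of 10 tested higher and 4 lower, or 1 higher without iWAT 1 and iWAT 3. Mammary and luminal markers had 5 of 9 tested higher and 1 lower, at a median of 3.24, or 5.33 without iWAT 1 and iWAT 3. Krt8, a higher gene, counts in both of these lists. The mammary sum was 95.4, 170 and 82.5 CPM in scBAT, against 50.6, 87.2 and 35.4 CPM in iWAT. The mesothelial sum was 21.2, 45.5 and 11.4 CPM in scBAT, against 8.44, 8.5 and 3.62 CPM in iWAT. Both followed the order of the salivary markers in scBAT, and the part of gland RNA in them was not tested.

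The same contrast was set beside iBAT against eWAT, which shares no library with it. Of the 9179 genes called between scBAT and iWAT, 91.2% had the same sign between iBAT and eWAT and 807 had the opposite sign. The same share over all tested genes was not computed, so 91.2% has no background to be read against. The difference between the log2 differences of the pairs was tested in the same fit, and 685 genes (4.6%) passed, 466 with a more positive value for scBAT against iWAT and 219 with a more negative one. These counts were 430 and 304 without iWAT 1 and iWAT 3, 3988 and 4312 without iWAT 2 alone, and between 136 and 434 and between 29 and 147 without any other single library. Among regional factors, Tbx15 had a log2 difference of -0.45 between scBAT and iWAT and 3.25 between iBAT and eWAT, and the pair difference was -3.70 (SE 0.71, adjusted p = 0.0214). For Lhx8 the values were 0.38 and 6.73, with a pair difference of -6.35 (SE 0.64, adjusted p = 0.00105). Hoxa5 had 3.14 and 1.13, a pair difference of 2.02 (SE 0.28, adjusted p = 0.00485). Cpt1a was lower in the brown depot of both pairs, at -1.24 and -1.97, a pair difference of 0.73 (SE 0.12, adjusted p = 0.0122). For Ucp1 the values were 6.48 and 5.58, and for Dio2 7.11 and 6.32, and their pair differences of 0.90 and 0.79 did not pass the test, at adjusted p of 0.364 and 0.349.

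**Figure D5:**
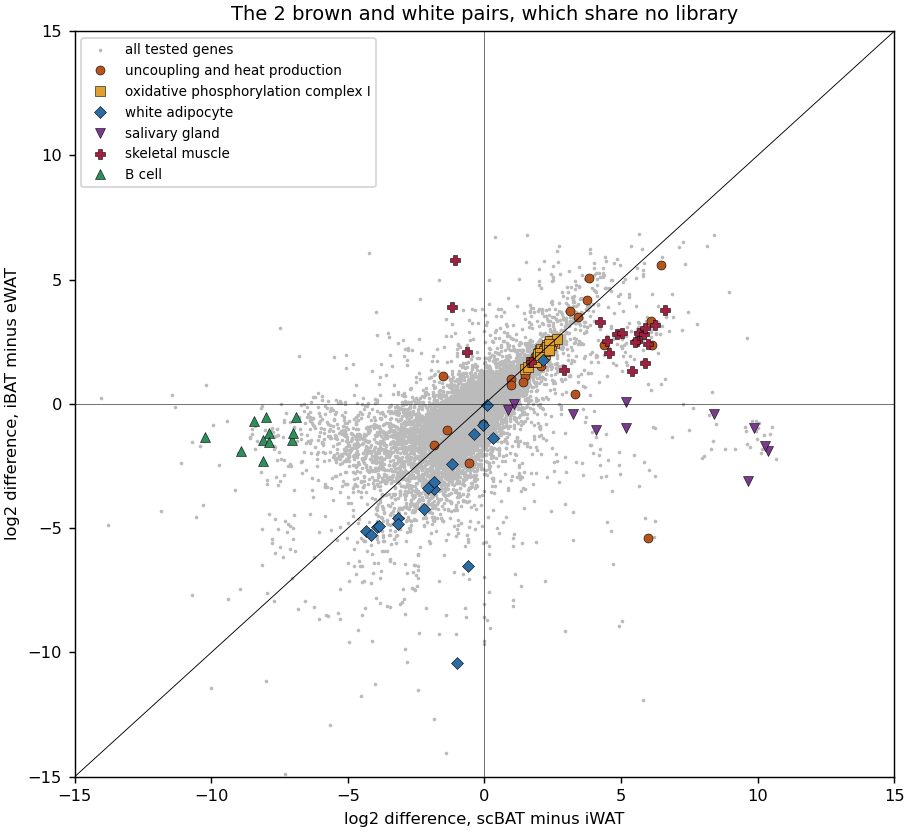
Log2 difference scBAT minus iWAT on the horizontal axis against log2 difference iBAT minus eWAT on the vertical axis, for all tested genes in grey and 6 gene lists in colour. Complex I genes lay together in the upper right between 1.48 and 2.66 on the horizontal axis, and B cell genes lay at the far left.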

How the data were processed

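The authors deposited raw gene counts of 12 libraries in 1 table, and all its columns were used (0 columns left aside). Per the labels' protocols, total RNA was extracted with a kit for fatty tissue and 250 ng went into TruSeq libraries. The submitters' processing notes name the genome build mm10 and the tools HTSeq 0.6.1p1, STAR 2.4.2a, bcl2fastq 1.8.3, edgeR and Picard 1.119, and the annotation and strand setting are not given in the sources used here. Overlapping and near-identical genes are therefore uncertain.

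Counts were fitted in edgeR 4.0.16 (R 4.3.3) with TMM factors, expression filtering by depot, 1 mean per depot over 12 libraries, robust quasi-likelihood tests on 8 residual degrees of freedom, and Benjamini-Hochberg adjustment over 14898 genes. Of 23420 genes, 4004 had no count, and tested genes held at least 99.7% of each library's counts. Changed genes simulated from these libraries were used to check the scripts. Log2 CPM used a prior count of 2. Counting intervals are 95% exact intervals, and the floor was 3 counts over a depot. Alternatives were other scalings, no expression filter, DESeq2 1.42.0, limma 3.58.1 (voom), the 6 libraries alone, a replicate block and leaving out libraries. Promoters came from RefSeq and were matched by symbol. Python 3.11.15, pandas 2.3.3, numpy 2.4.6, scipy 1.17.1 and matplotlib 3.10.9 made the summaries and plots.

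The members and lists were chosen with earlier results of these data known. Genes were named as the 10 largest called differences per direction at a mean of at least 10 CPM without overlap, the 6 largest pair differences per direction, up to 4 members per list with the smallest adjusted p, called members against their list's direction, members of the regulator, adrenergic, thyroid, adipocyte, secreted and Hox lists, and a short list of depot genes. Others, such as Cycs, Ndufv1, Cox7a1, Atp5g1 and Slc25a44, and the set of at least 50 CPM and 4-fold, were chosen after their values were seen. A few genes are not reported here. The labels give the replicate numbers but no pairing.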

Additional observations from a re-analysis of the deposited data

Results flagged for a closer look

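The genes below passed the test of the pair difference, that is, the log2 difference scBAT minus iWAT less the log2 difference iBAT minus eWAT, at an adjusted p under 0.05 in edgeR's quasi-likelihood test, as did 685 of all tested genes. Fitted values above about 10 or below about -6 rest on a depot with few or no counts and are no measure of size. Positive values were found for genes of epithelia, mesothelium and glands, at 13.86 for Krt8, 12.73 for Aqp5, 12.64 for Msln, 12.27 for Dcpp1, 12.08 for Krt14, 11.95 for Scgb1b27 and 11.95 for Dcpp3. Further gland genes stood at 11.66 for Prp2, 11.49 for Chia, 11.35 for Cst10, 11.01 for Prh1, 10.82 for Prb1, 10.66 for Crisp1 and 10.50 for Prpmp5. Krt8 averaged 0.0844 CPM in iBAT and 44.5 CPM in eWAT, and Msln averaged 0 CPM in iBAT and 96 CPM in eWAT.

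Negative values were found for several immune cell genes, at -8.08 for Apol7c, -7.77 for Fcer2a, -7.47 for Treml2, -7.47 for Cr2, -6.89 for Ccr7 and -3.66 for Tnfrsf9. Among T cell markers 11 of 14 tested passed with negative values, and among B cell markers 3 of 11, with none positive in either list. The slow fibre myosin Myh7 had -6.85. Of 15 tested macrophage markers, 5 passed with positive values and 1 with a negative value, beside 4.6% of all tested genes. The macrophage integrin Itgam had 1.18, from -2.56 between scBAT and iWAT and -3.74 between iBAT and eWAT.

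Against 4.6% of all tested genes, the pair difference passed in 2 more positive and 3 more negative of 9 tested Hoxa genes, in 4 more negative of 8 Hoxb genes, in 2 more negative of 6 Hoxc genes and in 2 more positive of 5 Hoxd genes. Of 41 other regional factors, 5 were more positive and 3 more negative. The pair difference was 1.82 for Hoxa4, 2.02 for Hoxa5, -2.40 for Hoxa6, -2.40 for Hoxa7 and -7.40 for Hoxa9. In the other clusters it was -2.38 for Hoxb6, -3.38 for Hoxb7, -3.59 for Hoxb8, -7.26 for Hoxb9, -3.10 for Hoxc6, -6.05 for Hoxc8 and 2.04 for Hoxd8. Among other regional factors it was -6.43 for En1, -6.35 for Lhx8, -3.70 for Tbx15 and 1.91 for Tbx18. Lhx8 and Tbx15 were far higher in iBAT than in eWAT, at means of 5.6 CPM in iBAT and 0.0473 CPM in eWAT for Lhx8 and of 7.82 CPM in iBAT and 0.81 CPM in eWAT for Tbx15, while scBAT and iWAT overlapped for both. In metabolism, Cpt1a had 0.73 and Atp5g1 had 1.36.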

How the results depend on the processing

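For scBAT against iWAT, the counts of genes higher and lower stayed within 1.5 times of 4192 and 4987 in every alternative run. Both were lowest with the 6 libraries alone, at 3082 and 3482, and highest in limma-voom with quality weights, at 5511 and 6508. Pooled over the 12 libraries, the coefficient of biological variation came to 26.1%, against 15.8% in scBAT and 42.8% in iWAT. The p-values of the shared fit may therefore understate the spread of iWAT. The counts ranged from 3556 to 5157 higher and 4196 to 6131 lower when 1 library was left out. The replicate block gave 4134 higher and 4756 lower. Same-numbered libraries did not deviate together (correlations of 0.234, -0.0575 and -0.16 for numbers 1 to 3, and only scBAT 1 correlated best with its own number), so the numbers were not taken as a pairing. Upper quartile scaling moved the median log2 difference to -0.16. Of 157 named genes called, 148 kept their call under other scalings, filters, tests and sample sets, the replicate block and left-out single libraries, and 127 also with iWAT 1 and iWAT 3 left out and in voom without weights, and none was called the other way.

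The pair difference was far less stable. It gave 466 genes higher and 219 lower, against 1188 and 1292 in DESeq2, 4494 and 4314 in limma-voom with quality weights, 296 and 49 in voom without weights, and 259 and 67 with the replicate block. Leaving out 1 library gave 136 to 3988 higher and 29 to 4312 lower, with the highest counts without iWAT 2. The quality weights of iWAT 1, 2 and 3 were 8.7, 0.0555 and 0.202, so that fit leaned on iWAT 1. The cause was not tested. The median distance between scBAT libraries was 0.598 with a prior count of 0.5. Motif shares are given for each gene set as values, since setting higher against lower genes is void at 78.5% matched promoters. The NRF1 core was in 3.88% of all matched promoters, in 4.95% of higher and 3.3% of lower genes, and in 4.14% and 1.99% of those with a 2-fold or larger difference. The ETS motif CCGGAAG was in 18.1% of all, in 21.2% and 14.5%, and in 15.4% and 10.4%. The wide spread of the iWAT libraries limits what small differences can be called.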
